A study of Mus musculus with 40 samples.

Results

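The miR-10 and miR-196 families are microRNAs whose hairpins lie within the Hox gene clusters. 4 mature miRNAs, miR-10a-5p, miR-10b-5p, miR-196a-5p and miR-196b-5p, of 1978 mature miRNAs counted in the hippocampal CA1 region of mice, are described here by mouse, age and genotype. They were selected on their place in Hox clusters and on measured levels that stood out in single mice, so the levels by mouse are a description and carry no test. Small RNA libraries from 40 mice were used, 1 per mouse. They fell into 5 wild-type (WT) and 9 CaMKIIδC transgenic (TG) mice at 3 months of age, and 15 WT and 11 TG mice at 6 months of age. These numbers follow the titles of the libraries. The study's figures on small RNA give fewer TG mice at 3 months and more at 6 months. TG mice overexpress the δC form of calcium/calmodulin-dependent protein kinase II and served as a model of heart failure. All mice, WT littermates included, had a C57Bl/6J background, males and females were both used, and neither the sex of a library nor the promoter of the transgene is given in the sources used here. For 3-month-old WT mice 1 and 2 the genotype field reads TG while the title reads wild-type, and the title was followed.

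Hox genes encode transcription factors that give cells their position along the axis from head to tail. Their expression during development begins in the hindbrain and spinal cord and leaves out the forebrain, from which the hippocampus arises. The miR-10 and miR-196 hairpins lie between or within Hox genes and are known for expression domains that follow those of their neighbours, and several Hox mRNAs are known targets of both families. A mature miRNA is a short RNA that recognises target mRNAs mainly through its seed, bases 2 to 8 from the 5′ end.

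The mature sequences from RefSeq (GRCm38.p6) are shown because the members of each family share a seed and are separated by a single base outside it, which decides how a read is assigned. All are written 5′ to 3′ with the seed in capitals, and the 3 relatives miR-99a, miR-99b and miR-100, whose seed differs from that of miR-10, are shown for comparison.
mmu-miR-10a-5p: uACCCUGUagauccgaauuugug
mmu-miR-10b-5p: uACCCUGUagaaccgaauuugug
mmu-miR-196a-5p: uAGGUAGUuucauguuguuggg
mmu-miR-196b-5p: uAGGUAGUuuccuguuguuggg
mmu-miR-99a-5p: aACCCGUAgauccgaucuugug
mmu-miR-99b-5p: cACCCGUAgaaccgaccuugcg
mmu-miR-100-5p: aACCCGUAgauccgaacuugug
Counted from 1 at the 5′ end, miR-10a-5p and miR-10b-5p differ by U12A, and miR-196a-5p and miR-196b-5p differ by A12C. Of 1679 mature miRNAs in the RefSeq table, the seed ACCCUGU occurs in 2, both of them miR-10 members, and AGGUAGU in 2, both miR-196. The 3 relatives share the seed ACCCGUA with no other miRNA of the table. Reads of miR-10a-5p and miR-10b-5p that carry an error at base 12 could be counted on the other member, and how the counting treated such reads was not tested.

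In GRCm38, Mir10a lies at chr11:96317165-96317274 on the plus strand, in no other annotated gene, with the end of Hoxb5 11044 bases upstream and the start of Hoxb4 993 bases downstream. Mir10b lies at chr2:74726070-74726137 on the plus strand, in an intron of both Hoxd3 and Hoxd4 on the same strand. Mir196a-1 lies at chr11:96265164-96265265 on the plus strand, 6192 bases before Hoxb9 and in no other gene. Mir196a-2, which gives the same mature miR-196a-5p, lies at chr15:102973350-102973434 on the plus strand in an intron of Hoxc5, between Hoxc10 and Hoxc9. Mir196b lies at chr6:52230081-52230165 on the minus strand, in an exon of a non-coding transcript of Hoxa9. The 5 hairpins therefore sit in all 4 Hox clusters of the mouse.

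**Figure D1:**
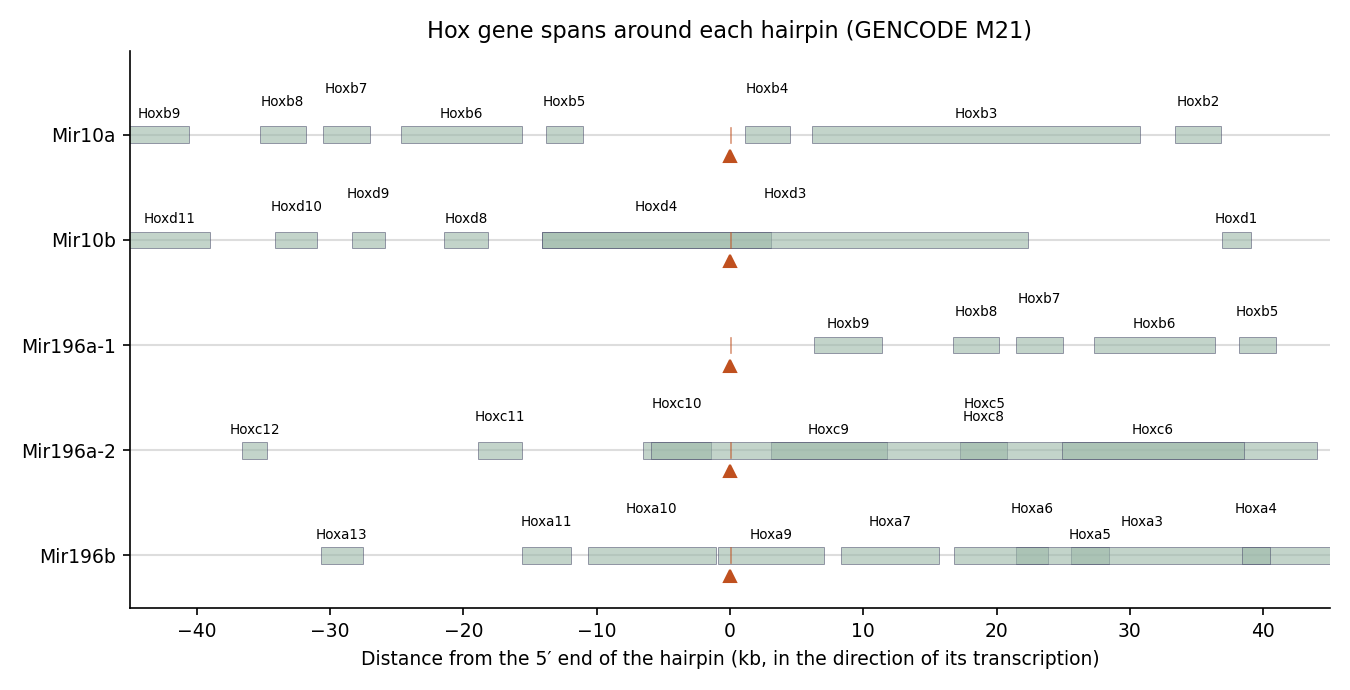
Spans of Hox genes (bars) within 45 kb of each hairpin (triangle), plotted by distance in kb from the hairpin's 5′ end in the direction of its transcription. Mir10b lies inside Hoxd3 and Hoxd4, Mir196a-2 inside Hoxc5 and Mir196b inside Hoxa9, while Mir10a and Mir196a-1 lie between genes.

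The depth of the libraries differed between ages. Counts on miRNAs ranged from 1926108 to 22892729 per library, with medians of 14340558 in 3-month-old WT, 18431486 in 3-month-old TG, 9893109 in 6-month-old WT and 9239179 in 6-month-old TG mice. A floor of 3 counts in a library corresponded to 0.131 to 1.56 CPM (the counts of a miRNA scaled to a common library total). Levels are CPM after TMM scaling, in which a library with a factor below 1 has all its CPM raised. Intervals of levels are exact Poisson intervals at 95% and, like the floor, cover counting error only, since reads amplified by PCR and not tagged by molecule may be copies of each other. Markers of the labelled tissue were present in all libraries. The 6 miRNAs fixed as markers of forebrain neurons (miR-124-3p, miR-9-5p, miR-128-3p, miR-132-3p, miR-137-3p and miR-138-5p) had more than 3 counts in every mouse and summed to between 166900 CPM, in a 3-month-old TG mouse, and 364600 CPM, in a 6-month-old TG mouse.

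The miR-196 family was at the limit of detection. miR-196a-5p had 6 counts over all 40 libraries, in 5 mice with at most 2 counts each, as listed on Mir196a-1. Mir196a-2 also had 6 counts in 5 mice, 4 of them the same mice with the same counts. miR-196b-5p also had 6 counts, in 5 mice with at most 2 each. Either total corresponds to 0.0128 CPM over the 469583750 miRNA counts of the series (95% interval, 0.00469 to 0.0278). No mouse exceeded the floor for either miRNA, so that neither could be compared between groups. No count fell on miR-196a-1-3p, miR-196a-2-3p or miR-196b-3p, the products of the other arm of these hairpins, which allows each at most 0.00786 CPM over the series (upper bound of the exact Poisson interval). Mice with a miR-196 count were found in every group, and the libraries at 6 months had lower median depth. miR-196a-5p was counted in 1 of 5 WT and 2 of 9 TG mice at 3 months, and in 1 of 15 WT and 1 of 11 TG mice at 6 months. miR-196b-5p was counted in 3 of 5 WT and 1 of 9 TG mice at 3 months, and in 0 of 15 WT and 1 of 11 TG mice at 6 months. The 3 WT mice were mice 1, 2 and 5, and mice 1 and 2 are those whose genotype field reads TG.

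The miR-10 family was present in every mouse. Counts of miR-10a-5p summed to 45667 over the series and ranged from 378 to 2419 per library, and those of miR-10b-5p summed to 9393 and ranged from 31 to 1726. By mean CPM, miR-10a-5p ranked 175 and miR-10b-5p 300 of all 1978 miRNAs. Both were counted almost wholly from the 5′ arm of the hairpin, with 76 counts of miR-10a-3p (99.8% of the counts of both arms on the 5′ arm) and 4 counts of miR-10b-3p (99.96%). The hairpins from RefSeq (GRCm38.p6) are shown with both mature arms in capitals, 5′ to 3′, the 5′ arm first.
Mir10a: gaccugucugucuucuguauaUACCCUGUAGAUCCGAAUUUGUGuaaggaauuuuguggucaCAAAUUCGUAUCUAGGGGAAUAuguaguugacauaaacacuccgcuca
Mir10b: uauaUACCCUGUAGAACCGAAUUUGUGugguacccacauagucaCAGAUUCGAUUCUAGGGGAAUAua
The 4 counts of miR-10b-3p came from 4 different mice, 6-month-old WT mouse 6, 3-month-old WT mouse 3 and 3-month-old TG mice 5 and 9, which ranked 3, 7, 38 and 27 of 40 for miR-10b-5p.

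miR-10a-5p varied more within each group than the medians differed between groups. In 3-month-old WT mice 1 to 5 its levels were 97.7, 41.1, 124, 60.6 and 57.6 CPM. In 9 TG mice of the same age the lowest, median and highest levels were 35.1, 87.3 and 223 CPM. At 6 months they were 44.9, 78.3 and 311 CPM in 15 WT mice and 71.4, 112 and 628 CPM in 11 TG mice. All 4 groups overlapped, and the order of the medians, lowest in 3-month-old WT and highest in 6-month-old TG mice, held no neighbours that were separated beyond their spread. The highest level was that of 6-month-old TG mouse 9 (628 CPM; 95% interval, 588 to 671), whose library was the shallowest of the series. The next were 6-month-old TG mouse 4 (330 CPM) and 6-month-old WT mouse 5 (311 CPM).

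miR-10b-5p was lower and differed far more between single mice. In 3-month-old WT mice 1 to 5 its levels were 5.16, 3.45, 45.4, 1.80 and 6.04 CPM, so that mouse 3 lay 8.80 times above the group's median. In 9 TG mice of that age the lowest, median and highest levels were 3.08, 11.5 and 124 CPM. At 6 months they were 2.98, 14.1 and 73.0 CPM in 15 WT mice and 4.09, 11.8 and 101 CPM in 11 TG mice. The groups overlapped over most of their range, and each held at least 1 mouse above 40 CPM. The levels over the 40 mice spanned 69.0-fold for miR-10b-5p and 17.9-fold for miR-10a-5p. The 6 highest mice held 52.1% of the summed CPM of miR-10b-5p, and the 6 highest for miR-10a-5p held 38.01%.

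**Figure D2:**
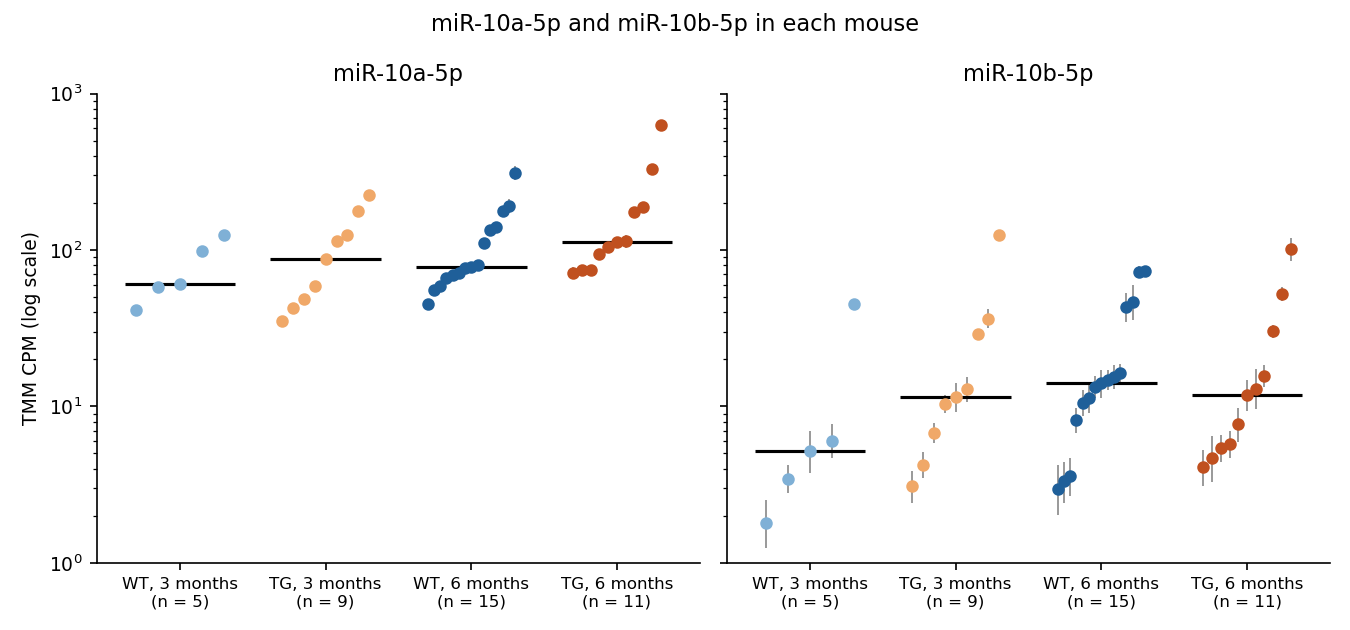
TMM CPM of miR-10a-5p (left) and miR-10b-5p (right) in each mouse on a log axis, by group, with 95% exact Poisson intervals of the counts (grey bars) and group medians (black lines). In every group 1 or a few mice lie well above the rest for miR-10b-5p, up to 124 CPM in 3-month-old TG mouse 1.

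The highest miR-10b-5p levels were found in both genotypes and at both ages. 3-month-old TG mouse 1 had 124 CPM (95% interval, 119 to 130, from 1726 counts). 6-month-old TG mouse 9 had 101 CPM (85.0 to 119, from 144 counts). 6-month-old WT mice 6 and 8 had 73.0 CPM (69.2 to 77.0, from 1354 counts) and 72.6 CPM (66.3 to 79.3, from 489 counts). These 4 mice stood above 70 CPM, 8 mice in all stood above 40 CPM, and the other 32 reached at most 36.4 CPM. The counting intervals were much narrower than the distance from these mice to the medians of their groups. 5 of the 8 (3-month-old TG mouse 1, 6-month-old TG mice 3 and 9 and 6-month-old WT mice 4 and 5) had TMM factors below 1, from 0.621 to 0.825. Under scaling by library totals alone the levels of 6-month-old TG mouse 9 and 3-month-old TG mouse 1 were 74.8 and 103 CPM, and those of 6-month-old WT mice 6 and 8 were 86.8 and 83.8 CPM. 6-month-old TG mouse 3 and 3-month-old WT mouse 3 then had 42.1 and 49.4 CPM. 6-month-old WT mice 5 and 4 fell from 46.5 and 43.1 to 28.8 and 27.5 CPM. Which mice stood above 40 CPM therefore depended on the scaling.

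Mice high in miR-10b-5p were not always high in miR-10a-5p. The ratio of miR-10b-5p to miR-10a-5p had a median of 0.114 over the 40 mice and ranged from 0.0298 to 1.10. It was highest in 3-month-old TG mouse 1 (1.10), 6-month-old WT mouse 6 (0.933) and 6-month-old WT mouse 8 (0.911). In these 3 mice miR-10a-5p was 113, 78.3 and 79.7 CPM and ranked 15, 23 and 22 of 40. In 6-month-old TG mouse 9, in contrast, the ratio was 0.160, and miR-10a-5p and miR-10b-5p ranked first and second. Across the 40 mice, with each group centred on its mean, Spearman's rho between both was 0.63 (Pearson's r = 0.61, and 0.55 without the 2 mice farthest from the median of miR-10b-5p). Within groups rho was 0.58 in 9 3-month-old TG, 0.63 in 15 6-month-old WT and 0.79 in 11 6-month-old TG mice. These correlations are descriptions across libraries that share the scaling of both miRNAs.

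**Figure D3:**
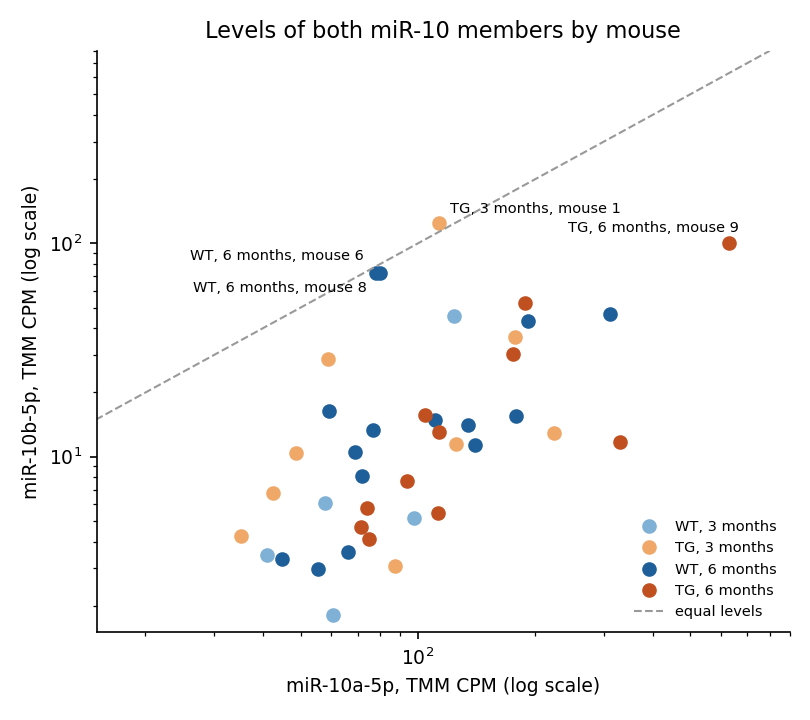
miR-10b-5p against miR-10a-5p in each of the 40 mice, both as TMM CPM on log axes, coloured by group, with the line of equal levels (dashed). 3-month-old TG mouse 1 and 6-month-old WT mice 6 and 8 lie near the line (ratios of 1.10, 0.933 and 0.911), and 6-month-old TG mouse 9 is high in both.

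Compared with other miRNAs, the spread of miR-10b-5p between mice of a group was among the highest. Its within-group SD was 1.54 on the log2 scale, which ranked 2 of the 361 miRNAs that averaged 10 CPM or more, against a median of 0.46 over these miRNAs. The SD of miR-10a-5p was 0.87, at rank 38. The relatives with the other seed were more abundant and less spread, with SDs of 0.40 for miR-99a-5p, 0.39 for miR-100-5p and 0.80 for miR-99b-5p.

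**Figure D4:**
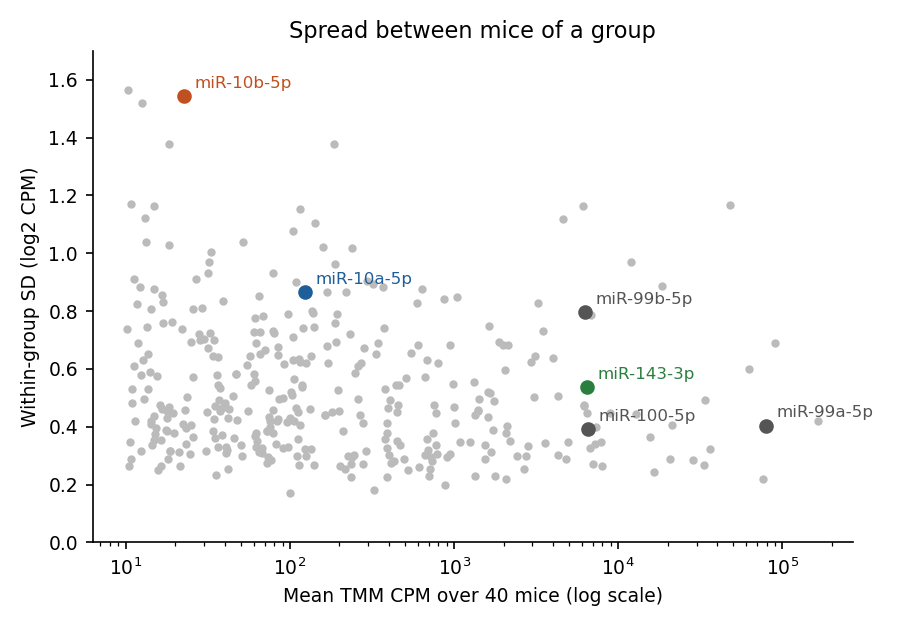
Within-group SD of log2 CPM against mean TMM CPM (log axis) for the 361 miRNAs that averaged 10 CPM or more. miR-10b-5p (SD of 1.54) lies near the top, and miR-10a-5p (0.87) lies above the median of 0.46.

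The miRNAs most like each member were ranked by Spearman's rho of group-centred log2 CPM over the 40 mice. For miR-10b-5p these were miR-143-3p (rho = 0.76), known from smooth muscle of vessels, miR-135a-2-3p (0.68) and miR-200a-5p (0.65), a member of the epithelial miR-200 family. For miR-10a-5p they were miR-679-5p (0.87) and miR-379-5p (0.87), both from the imprinted Dlk1-Dio3 region, and miR-532-5p (0.86). The rho of miR-10b-5p with miR-143-3p was 0.75 in 3-month-old TG, 0.85 in 6-month-old WT and 0.79 in 6-month-old TG mice. With miR-10a-5p, miR-143-3p had a rho of 0.78 over the 40 mice, so that a high rho was not limited to miR-10b-5p. Its place in the ranking differed between the members. Among the 361 miRNAs, each member itself included, miR-143-3p ranked 2 for miR-10b-5p and 44 for miR-10a-5p. In the mice highest in miR-10b-5p, miR-143-3p was 9500 CPM (3-month-old TG mouse 1), 13400 CPM (6-month-old TG mouse 9), 11350 CPM (6-month-old WT mouse 6) and 8164 CPM (6-month-old WT mouse 8), against a median of 5917 CPM over the 40 mice. All of these lay above the median, which is no separate observation, since miR-143-3p was picked by its rho over the same mice. miR-143-3p was itself not called between any groups.

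Library properties moved with these levels as well. miR-10a-5p correlated with the TMM factor (rho = -0.82), and with scaling by library totals alone the rho was -0.62. With the library total, rho was -0.60 for miR-10a-5p and -0.40 for miR-10b-5p. For miR-10b-5p the rho with the TMM factor was -0.51, and -0.39 with library totals alone. CPM is computed from both the total and the factor, so that part of these correlations is shared by construction, and their part in the differences between mice was not tested.

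The lists fixed as markers of other cells the dissection could hold were read beside miR-10b-5p. Fewer cells of a type and less RNA per cell cannot be told apart in such bulk libraries. The vessel list (miR-126a-3p, miR-126a-5p, miR-143-3p and miR-145a-5p, all 4 counted in every mouse) summed to 9491 to 16310 CPM in 3-month-old WT, 9581 to 16930 CPM in 3-month-old TG, 11260 to 22410 CPM in 6-month-old WT and 13230 to 21000 CPM in 6-month-old TG mice. Its sum had the highest rho of all lists with miR-10b-5p (0.78) and a rho of 0.75 with miR-10a-5p. Its members did not move alike. The rho with miR-10b-5p was 0.76 for miR-143-3p, 0.21 for miR-126a-3p, -0.46 for miR-126a-5p and -0.32 for miR-145a-5p, the neighbour of miR-143 in its cluster. Among the 40 mice, 6-month-old WT mouse 6 had the highest miR-145a-5p, with 219 CPM against a median of 80.5 CPM.

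The choroid plexus list (miR-204-5p, miR-211-5p, miR-449a-5p, miR-34b-5p and miR-34c-5p) had 4 of 5 members above the floor in every mouse and a rho of 0.31 with miR-10b-5p. It summed to 515 to 1106 CPM in 3-month-old WT, 464 to 854 CPM in 3-month-old TG, 669 to 2524 CPM in 6-month-old WT and 781 to 1190 CPM in 6-month-old TG mice. The upper end came from 6-month-old WT mouse 8, which had the highest miR-204-5p (1669 CPM; median, 703), miR-211-5p (70.8 CPM; median, 34.9), miR-34b-5p (134 CPM; median, 24.1) and miR-34c-5p (650.0 CPM; median, 112) of the 40 mice. In 3-month-old WT mouse 3, miR-34c-5p was 396 CPM and miR-204-5p 607 CPM. 3-month-old TG mouse 1, with the highest miR-10b-5p, had 124 CPM of miR-34c-5p and 502 CPM of miR-204-5p, so that high miR-10b-5p was found with and without high choroid plexus markers.

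The epithelial list had 3 of 5 members above the floor in every mouse, a rho of 0.40 with miR-10b-5p, and sums of 81.2 to 299.6 CPM in 3-month-old WT, 127 to 338 CPM in 3-month-old TG, 36.98 to 275 CPM in 6-month-old WT and 79.6 to 375 CPM in 6-month-old TG mice. The rho with miR-10b-5p was 0.45 for miR-200b-3p and 0.23 for miR-200a-3p. For the other members of the list it was 0.07 (miR-429-3p), -0.06 (miR-141-3p) and -0.13 (miR-200c-3p). 6-month-old TG mouse 9 had the highest miR-200b-3p (249.7 CPM) of the 40 mice and 6-month-old WT mouse 8 the lowest (15.7 CPM). In the same TG mouse, miR-200a-3p (110 CPM; median, 57.3) was also high. In this mouse miR-429-3p (11.2 CPM; median, 10.5) and miR-200c-3p (2.10 CPM; median, 2.19) lay near the median. Its miR-141-3p was 2.10 CPM (median, 0.398). The floor of this library was 1.56 CPM before TMM scaling with a factor of 0.742, so both values of 2.10 CPM lay near the floor. miR-375-3p, known from endocrine cells, had a rho of 0.62 with miR-10b-5p. It was 111 CPM in 3-month-old TG mouse 1, 94.4 CPM in 6-month-old TG mouse 9 and 143 CPM in 6-month-old WT mouse 8, but 33.8 CPM in 6-month-old WT mouse 6, against a median of 51.0 CPM. The mice with the most miR-10b-5p thus differed from each other in the markers that were high.

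The remaining lists gave a rho with miR-10b-5p of 0.60 (liver and endocrine), 0.50 (heart and muscle), 0.49 (forebrain neurons), 0.48 (sensory and pineal), 0.37 (erythroid), 0.08 (oligodendrocyte) and -0.48 (myeloid). The liver and endocrine list (miR-122-5p and miR-375-3p) summed to 46.2 to 108 CPM in 3-month-old WT, 35.0 to 216 CPM in 3-month-old TG, 39.6 to 164 CPM in 6-month-old WT and 34.6 to 106 CPM in 6-month-old TG mice. The heart and muscle list summed to 289 to 1219 CPM in 3-month-old WT, 633 to 1698 CPM in 3-month-old TG, 245 to 1406 CPM in 6-month-old WT and 396 to 894 CPM in 6-month-old TG mice. Nearly all of it was miR-1a-3p, while the heart miRNAs miR-208a-3p and miR-208b-3p were at 0 in 39 and 34 mice. The other members, miR-206-3p, miR-133a-3p and miR-499-5p, were low but counted in every mouse. Their rho with miR-10b-5p was 0.24, -0.37 and -0.20, against 0.51 for miR-1a-3p. The sensory and pineal list (miR-183-5p, miR-96-5p and miR-182-5p) had a rho of 0.81 with miR-10a-5p and summed to 80.4 to 179.9 CPM in 3-month-old WT, 82.1 to 483 CPM in 3-month-old TG, 59.8 to 857 CPM in 6-month-old WT and 81.1 to 814 CPM in 6-month-old TG mice. The myeloid list (miR-223-3p, miR-142a-3p and miR-142a-5p) had the lowest rho with miR-10a-5p (-0.71), and its sums ran from 43.0 to 52.0 CPM in 3-month-old WT, 18.7 to 69.8 CPM in 3-month-old TG, 17.8 to 58.0 CPM in 6-month-old WT and 24.5 to 70.3 CPM in 6-month-old TG mice. The erythroid list, with a rho of 0.65 with miR-10a-5p, summed to 447 to 705 CPM, 432 to 1371 CPM, 517 to 1242 CPM and 639.6 to 1205 CPM in the same order of groups. Of its members, miR-486a-5p had a rho of 0.72 with miR-10a-5p, miR-451a 0.05 and miR-144-3p -0.38. Members of a list could move apart: among the forebrain neuron markers, miR-10a-5p had a rho of 0.68 with miR-128-3p but -0.78 with miR-124-3p and -0.78 with miR-138-5p. With miR-10b-5p these were 0.50, -0.54 and -0.58, and rho was -0.53 for miR-137-3p, 0.22 for miR-9-5p and 0.005 for miR-132-3p. The oligodendrocyte markers miR-219a-5p, miR-338-3p and miR-219a-2-3p had -0.42, -0.28 and 0.15 with miR-10b-5p. With miR-10a-5p, miR-182-5p and miR-183-5p had 0.81 and 0.79, but miR-96-5p 0.04. The part of other cells in the levels of miR-10a-5p and miR-10b-5p was not tested.

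Age was compared first within each genotype. In TG mice miR-10a-5p was 0.84 higher at 6 than at 3 months on the log2 scale (SE 0.43; 95% interval, -0.05 to 1.73; adjusted p = 0.176, edgeR with Benjamini-Hochberg adjustment). Without 6-month-old TG mouse 9 the difference was 0.42. miR-10b-5p differed by -0.24 (SE 0.68; interval, -1.65 to 1.16; edgeR adjusted p = 0.828), and without 3-month-old TG mouse 1 by 0.66. A miRNA was called at an adjusted p under 0.05 and an absolute log2 fold change above 0.26. Of 629 miRNAs tested, 99 were called (15.7%), 47 higher and 52 lower at 6 months, and 0 of the 2 miR-10 members that passed the filter on low counts were among them. DESeq2 called 144 miRNAs without a member. The study removed unwanted variance with RUVSeq and does not give the kind or number of factors. With 1 RUVr factor of unwanted variation, a choice made here, DESeq2 called 302, among them miR-10a-5p (0.71, DESeq2 adjusted p = 0.005). In all, 204 had an unadjusted edgeR p under 0.05, neither member among them (0.0634 and 0.723).

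In WT mice miR-10a-5p was 0.53 higher at 6 months (SE 0.38; interval, -0.25 to 1.30; edgeR adjusted p = 0.526). miR-10b-5p was 0.89 higher (SE 0.76; interval, -0.68 to 2.46; edgeR adjusted p = 0.579), and 0.38 higher without the 2 mice of differing labels. Without 3-month-old WT mouse 3 it was 2.48 higher. The level of this mouse lay above 12 of the 15 6-month-old WT mice. 1 of 660 miRNAs was called by edgeR (0.152%) and 25 by DESeq2, and 102 had an unadjusted p under 0.05. Neither member was among those called.

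Genotype was compared at each age. At 3 months, miR-10a-5p was 0.34 higher in TG than in WT mice (SE 0.41; interval, -0.52 to 1.20; edgeR adjusted p = 0.998). It was 0.11 or 0.20 higher without TG mouse 2 or WT mouse 2, and 0.60 higher without WT mouse 3. miR-10b-5p was 1.00 higher (SE 0.88; interval, -0.86 to 2.86; edgeR adjusted p = 0.998). This difference fell to 0.14 without 3-month-old TG mouse 1 and rose to 2.60 without 3-month-old WT mouse 3, so that single mice set its size. It was 0.48 without the 2 mice of differing labels and 0.31 with them counted as TG. Of 695 miRNAs tested, edgeR and DESeq2 called 0 (0%), and 7 had an unadjusted edgeR p under 0.05. At 6 months, miR-10a-5p was 0.66 higher in TG mice (SE 0.36; interval, -0.06 to 1.39; edgeR adjusted p = 0.992), and 0.25 higher without TG mouse 9. miR-10b-5p differed by -0.09 (SE 0.57; interval, -1.25 to 1.07; edgeR adjusted p = 0.992). Of 612 miRNAs, edgeR and DESeq2 called 0 (0%), and 3 had an unadjusted edgeR p under 0.05.

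The interaction of age and genotype, the age difference of TG minus that of WT mice, was 0.28 for miR-10a-5p (SE 0.59; interval, -0.92 to 1.47; edgeR adjusted p = 0.986) and -1.16 for miR-10b-5p (SE 1.07; interval, -3.31 to 0.99; edgeR adjusted p = 0.986). It was -2.77 for miR-10b-5p without 3-month-old WT mouse 3 and -0.27 without 3-month-old TG mouse 1. Without the 2 mice of differing labels it was -0.67, and with them counted as TG it was -0.43. Of 699 miRNAs, edgeR and DESeq2 called 0 (0%), and 14 had an unadjusted edgeR p under 0.05. The intervals of miR-10b-5p spanned more than 2 log2 units in each comparison, and differences within them could not be told from 0 with these mice.

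**Figure D5:**
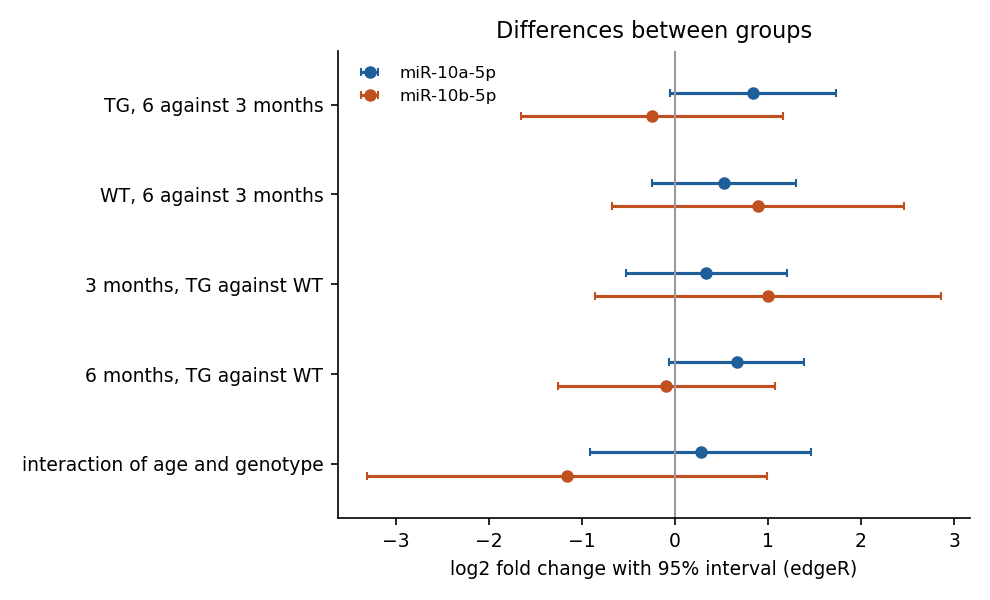
Log2 fold changes of miR-10a-5p and miR-10b-5p in the 5 comparisons with 95% intervals from edgeR. All intervals include 0, and those of miR-10b-5p are wider, up to -3.31 to 0.99 for the interaction.

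The related miR-99 and miR-100 miRNAs, from other clusters, were read beside the members. In TG mice miR-99a-5p rose between 3 and 6 months by 1.01 on the log2 scale (SE 0.20; edgeR adjusted p = 0.00172), from a median of 38480 to 101200 CPM. It was the only 1 of the 3 relatives called in any comparison. In WT mice it was 0.65 higher at 6 months (SE 0.19; edgeR adjusted p = 0.179). miR-100-5p and miR-99b-5p differed by 0.33 and 0.18 between ages in TG mice (edgeR adjusted p = 0.212 and 0.721). Across mice, miR-10a-5p had a rho of 0.86 with miR-100-5p, 0.80 with miR-99b-5p and 0.53 with miR-99a-5p.

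miR-615-3p, from a hairpin in an intron of Hoxc5 (Mir615, chr15:103014910-103015001, plus strand of GRCm38), had more counts than any other Hox cluster miRNA outside the 2 miR-10 members. It had 271 counts in 37 mice and miR-615-5p had 0. Its medians were 0.345 and 0.247 CPM in 3-month-old WT and TG mice, and 0.672 and 0.604 CPM in 6-month-old WT and TG mice, close to the floor of these libraries, and the groups overlapped. Its rho with miR-10b-5p was -0.19 over the 40 mice, whose median of miR-615-3p was 0.471 CPM. Of the 8 mice above 40 CPM of miR-10b-5p, 3-month-old TG mouse 1 had 0.216, 6-month-old TG mouse 9 had 0, 6-month-old WT mouse 8 had 0.297, 6-month-old WT mouse 5 had 0 and 3-month-old WT mouse 3 had 0.128 CPM of miR-615-3p. 6-month-old WT mouse 6 had 0.701, 6-month-old TG mouse 3 had 1.11 and 6-month-old WT mouse 4 had 2.03 CPM, the last close to the highest level of the series (2.09 CPM). The levels of these 8 mice, set apart under TMM scaling, lay on both sides of the median but rest on 0 to 13 counts each. For 6-month-old TG mouse 9 and WT mouse 5, with 0 counts, the 95% intervals reached 2.58 and 2.86 CPM. These mice could therefore not be placed beside the median. The 4 counts of 6-month-old WT mouse 4 gave an interval of 0.552 to 5.19 CPM.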

How the data were processed

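Small RNA of the hippocampal CA1 region was sequenced by the authors, 1 library per mouse. Per the labels and the study's methods, the authors used bcl2fastq (2.20.2), FastQC (0.11.5) and cutadapt (2.8 in the labels), aligned reads to mm10 with mirdeep2 and deposited raw counts per mature miRNA, listed once for every precursor it has. Deposited normalized values (RPM) were not used. The precursor with the highest total represented each miRNA, and 52 spike-in entries were left out. Each comparison was fitted with edgeR (4.0.16, R 4.3.3): filterByExpr (minimum count of 10, minimum total of 15), TMM scaling, robust quasi-likelihood F test and Benjamini-Hochberg adjustment over all miRNAs tested. DESeq2 was version 1.42.0. Log2 CPM used a prior count of 2. RUVr-type factors were computed from deviance residuals. The fits were tested on simulated counts. Loci are from GENCODE M21 and sequences from RefSeq, both on GRCm38, the build named mm10. All 4 members matched.

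The members, marker lists and tests were chosen with earlier results of these data known. The miRNAs named are the members, the other products of Hox hairpins, miR-99a, miR-99b and miR-100, the 3 miRNAs most like each member, and the markers. No batch is given in the labels. Groups follow the titles. No library was a copy of another (lowest chi-square per degree of freedom, 102). Alternatives were other scalings, filters and tools, a replicate block, a joint fit, summed precursors, the mice with differing labels left out or counted as TG, and each mouse left out. Scaling of the correlations by library totals was added after seeing the data.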

Additional observations from a re-analysis of the deposited data

Results flagged for a closer look

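In groups of 4 to 10 mice, single mice far from the rest were looked for in miR-10a-5p, miR-10b-5p and miR-615-3p, which gave 6 sets of values. miR-10b-5p stood out in both groups. In 3-month-old WT mice, mouse 3 had 45.4 CPM against 6.04 CPM in the next mouse, a gap of 0.903 of the group's range. In 3-month-old TG mice, mouse 1 had 124 CPM against 36.4 CPM in the next mouse, a gap of 0.725 of the range. The cutoff used is meant as one that chance passes in about 1 in 20 groups. The gaps were taken on CPM and not on a log scale, and this rate was not checked for such values. These miRNAs were also chosen with such mice in view, so the gaps are a description and no test. No miR-10a-5p or miR-615-3p value stood out in this way, and the groups of 11 and 15 mice were not examined.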

How the results depend on the processing

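Of 332 refits of the 10 log2 fold changes of both miR-10 members, 317 kept direction and side of the threshold, 13 reversed and 2 passed it. With DESeq2 and 1 RUVr factor, 302 miRNAs were called between ages in TG mice, among them 1 member, miR-10a-5p (0.71, DESeq2 adjusted p = 0.005), 205 between ages in WT mice, and 3 between genotypes at 3 and 3 at 6 months. In WT mice, 25 miRNAs were called between ages with DESeq2 and 2 with library totals only, and 0 to 4 with single mice left out (0 without 6-month-old mice 7 or 8 or 3-month-old mice 2, 3 or 4, and 4 without 3-month-old mice 1 or 5). A replicate block raised the calls between ages in WT mice to 250 miRNAs, among them 1 member, miR-10a-5p (1.15, edgeR adjusted p = 0.00347), but same-numbered mice did not all correlate above 0.1 in any comparison (2 of 5 pairs between ages in WT, 7 of 9 between ages in TG, 2 of 5 between genotypes at 3 and 9 of 11 at 6 months), so the numbers were not taken to pair the mice. The block turned miR-10b-5p between ages in TG mice to 0.14 and the interaction of miR-10a-5p to -0.26. miR-10b-5p between ages in TG mice was 0.012 with the 2 mice of differing labels counted as TG, and -0.79 to 0.66 with single mice left out. At 6 months, miR-10b-5p ranged from -0.62 to 0.16 and reversed without TG mouse 1, 5, 6, 7 or 10 (0.01, 0.03, 0.02, 0.02 and 0.03) or WT mouse 5, 6 or 8 (0.0065, 0.16 and 0.16). The interaction of miR-10a-5p ranged from -0.14, without 6-month-old TG mouse 9, to 0.51. The cause of these changes was not tested. With library totals in place of TMM, rho of miR-10b-5p was 0.55 with miR-10a-5p and 0.57 with miR-143-3p, which then ranked 3. For miR-10a-5p, rho was then 0.75 with miR-379-5p, 0.74 with miR-679-5p and 0.69 with miR-532-5p, which ranked 1, 2 and 3. Depth limits miR-196a-5p and miR-196b-5p, whose counts did not exceed the floor in any mouse.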
